A study of Mus musculus with 8 samples.

Results

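Integrin and laminin subunit genes are described here in mouse embryonic stem cells (ESC) and in cells derived from them by retinoic acid differentiation (RA-DIFF), with and without huntingtin. The members are the protein-coding genes of the RNA-seq count table whose symbol names an integrin alpha subunit (Itga), an integrin beta subunit (Itgb) or a laminin chain (Lama, Lamb or Lamc). The rule gave 37 of the 32567 genes, namely 18 alpha subunits, 8 beta subunits and 11 laminin chains. It uses names only and no measured value.

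Integrins are receptors for the extracellular matrix, each a pair of an alpha and a beta subunit, and the pair decides which ligand is bound: laminins, collagens, proteins that carry the RGD sequence such as fibronectin and vitronectin, or receptors on other cells. Laminins are secreted trimers of an alpha, a beta and a gamma chain that build basement membranes, the sheets on which epithelia and the cells of the early embryo rest. Both families act in embryoid bodies, where an outer layer of endoderm lays down a basement membrane and inner cells attach to it.

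The study asked how loss of huntingtin alters gene expression before and after retinoic acid treatment. Poly-A RNA was sequenced as 50 bp read pairs from a wild-type parental ESC line and from a line with both copies of the gene inactivated as Hdh ex4/5 (Htt-null), each grown for 4 passages without feeder cells. For RA-DIFF, both lines were grown as embryoid bodies for 8 days with 5 µM retinoic acid from day 4, taken apart with trypsin, plated on poly-ornithine and laminin, and collected 2 h after plating. Each genotype was 1 cell line, each of the 4 conditions has 1 library, and no difference below has a replicate check or a p-value. The trypsin step and the laminin-coated surface are described for RA-DIFF, and how ESC were collected is not given in the sources used here, so stage, plating and dissociation cannot be told apart.

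The labels of the RA-DIFF libraries were checked first with Htt, the targeted gene. Htt stood at 166 CPM (counts scaled to a library of equal size) in the wild-type ESC library and at 111 CPM in the Htt-null ESC library, a log2 ratio of -0.58. In RA-DIFF it stood at 73.3 CPM in the library labelled wild type and at 98.7 CPM in the library labelled Htt-null, a log2 ratio of 0.43, which goes against the labels. Expression values that the study lists by condition were set beside the deposited counts, for the part of its genes that could be read here. Compared were genes above a minimum count and level whose log2 ratio between the libraries of that stage exceeded 0.75 in size. The ESC values lay nearer to the library of the same label for 79 of 79 genes, and the RA-DIFF values lay nearer to the library of the opposite genotype for 268 of 268 genes. The RA-DIFF libraries are therefore called by their labels throughout. If the labels were exchanged, every RA-DIFF difference between genotypes would keep its size and take the opposite sign.

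The libraries held between 63617410 counts (Htt-null ESC) and 110569127 counts (RA-DIFF labelled wild type), so that 3 counts, the limit that a count of 0 allows, corresponded to 0.0268 to 0.0460 CPM. CPM values are scaled by the trimmed mean of M values (TMM) and are given in the order wild type, Htt-null. Of the 37 members, 33 had a mean log2 CPM above 0 over the 4 libraries, and Itgad, Itgax, Itgb2 and Itgb6 did not, with between 0 and 53 counts in any library. Of those 33, 6 members were above 1 CPM in RA-DIFF alone (Lama2, Lamc3, Itga1, Itga2, Itga11 and Itgb8) and 4 in ESC alone (Lamb3, Itgal, Itgam and Itgb7). These 10 had to differ between the stages to be kept, which leaves 23 members above 1 CPM in at least 1 library of each stage. Past the limits means a log2 ratio above 0.75 or below -0.75 in a member with mean log2 CPM above 0. For members with at least 1000 counts in both libraries the 95% counting interval lay within 0.108 of the log2 ratio, and with at least 100 counts within 0.373. These intervals cover counting error only.

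**Figure D1:**
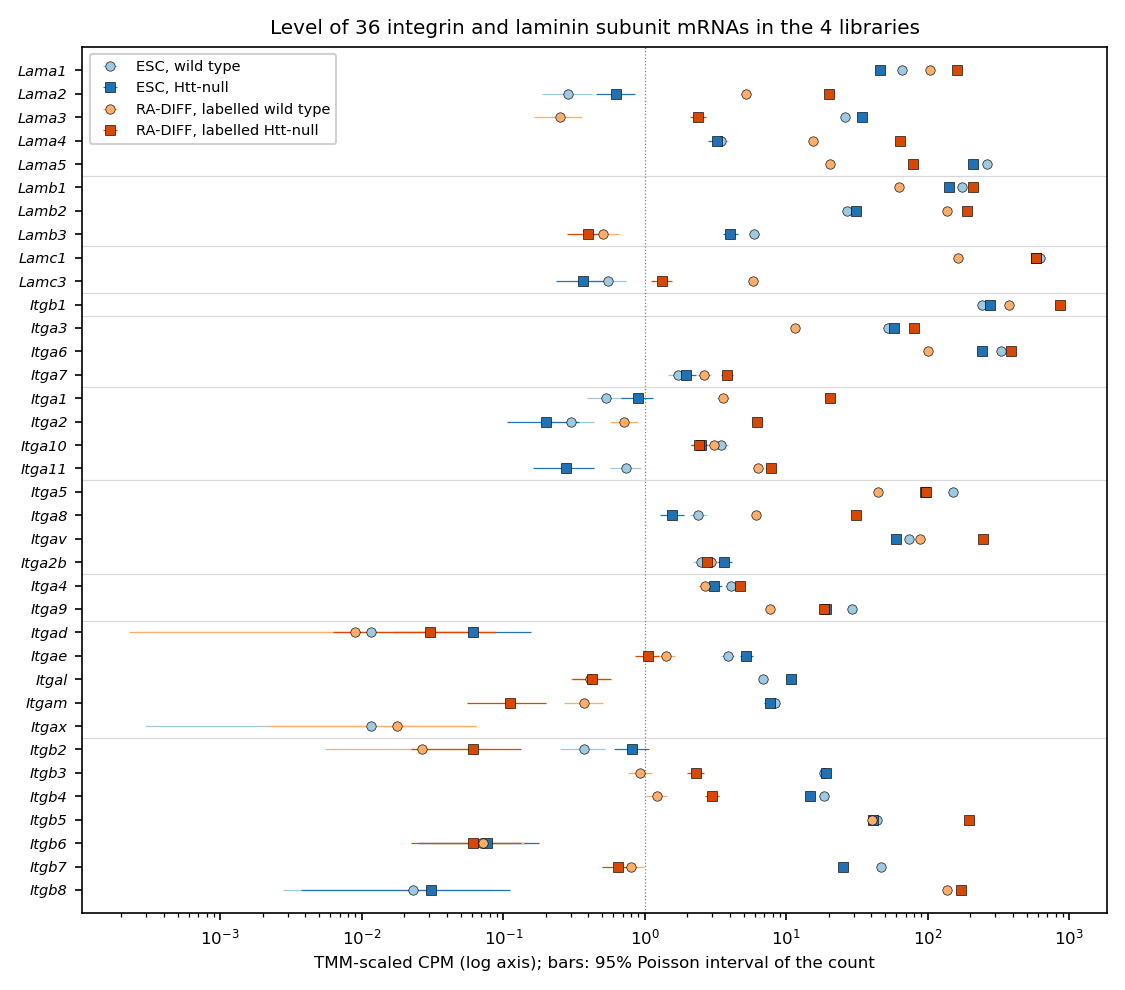
TMM-scaled CPM (log axis) of 36 members in the 4 libraries, with bars for the 95% Poisson interval of each count. Itgb8 had 2 reads in each ESC library and 136 and 172 CPM in RA-DIFF, while Lamc1 stood at 165 CPM or more in every library.

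Among the laminin alpha chains, the mRNA make-up of ESC and RA-DIFF differed most at Lama5 and Lama1. Lama5, the alpha chain of many adult and embryonic basement membranes, stood at 261 and 207 CPM in ESC and at 20.3 and 78.7 CPM in RA-DIFF. Lama1, the alpha chain of the first basement membranes of the embryo, stood at 65.5 and 45.6 CPM in ESC and at 103 and 159.7 CPM in RA-DIFF. Lama5 was thus higher in both ESC libraries and Lama1 in both RA-DIFF libraries. The share of all genes that separate the stages in this way was not computed, for these or any gene below. On the per-length scale (CPM per kilobase of merged exons), Lama5 made up 70.7% and 69.0% of the summed alpha chain level in ESC, and 12.7% and 22.9% in RA-DIFF. Lama1 made up 20.9% and 17.9% in ESC, and 75.7% and 54.7% in RA-DIFF. These are shares of RNA and not of assembled trimers, and the widest of their counting intervals, that of Lama5 in Htt-null ESC, ran from 68.3% to 69.6%.

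The remaining alpha chains held smaller shares per length of merged exons. Lama4, found in vessels and mesenchyme, stood at 3.48 and 3.22 CPM in ESC and at 15.6 and 63.8 CPM in RA-DIFF. Lama2, the chain of muscle and peripheral nerve, stood at 0.29 and 0.63 CPM in ESC and at 5.17 and 20.2 CPM in RA-DIFF. Both were higher in RA-DIFF in both lines, and within RA-DIFF both had the higher level under the Htt-null label. Lama3, an epithelial chain, ran the other way between stages, at 25.9 and 34.1 CPM in ESC and at 0.25 and 2.37 CPM in RA-DIFF. Its 28 reads in RA-DIFF labelled wild type put the log2 ratio to ESC at -6.69, with a counting interval of -7.29 to -6.16.

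The beta chains exchanged places in the same libraries. Lamb1, the beta chain of the early embryo, stood at 174 and 141 CPM in ESC and at 63.0 and 208 CPM in RA-DIFF, so that the RA-DIFF libraries lay on either side of the ESC libraries. Lamb2, which pairs with the same gamma chain in nerve, muscle and kidney, stood at 27.0 and 30.9 CPM in ESC and at 136 and 189 CPM in RA-DIFF. Lamb1 held 76.7% and 71.5% of the per-length beta chain level in ESC, and 22.1% and 40.3% in RA-DIFF. Lamb2 held 19.4% and 25.5% in ESC, and 77.6% and 59.6% in RA-DIFF. With the length of the longest transcript in place of merged exons, Lamb1 held 51.7% and Lamb2 48.2% in RA-DIFF labelled Htt-null, which turned their order there. The same length turned the order of Lama4 and Lama5 in both RA-DIFF libraries, with Lama4 at 16.4% and 28.9% and Lama5 at 11.3% and 18.9%. Lamb3, an epithelial beta chain, was at 5.92 and 4.02 CPM in ESC and at 0.51 and 0.40 CPM in RA-DIFF.

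Lamc1, the gamma chain shared by most laminins, was the most abundant laminin mRNA per length in 3 of the 4 libraries. It stood at 618 and 582 CPM in ESC and at 165 and 584 CPM in RA-DIFF, and held 94.5%, 94.6%, 94.5% and 98.4% of the per-length gamma chain level in the 4 libraries. Its level in RA-DIFF labelled Htt-null was within counting error of that in Htt-null ESC (log2 ratio 0.00), while the library labelled wild type was lower than wild-type ESC by a log2 ratio of -1.91. The epithelial chains Lama3 and Lamb3 were both higher in both ESC libraries than in both RA-DIFF libraries, and Lamb3 had to differ between the stages to be kept. The 8 epithelial and epidermal markers summed to 378 and 292 CPM in ESC and to 14.9 and 19.1 CPM in RA-DIFF. The ESC sums were mostly Epcam (219 and 192 CPM) and Dsp (122 and 66.9 CPM), while Krt5, Krt14, Krt15 and Trp63 reached at most 0.52 CPM there. Of the 4 above the expression limit, 4 were lower in RA-DIFF in both lines (all genes 26.2% and 24.9%). The part of these markers in the epithelial laminin levels was not tested. Lamc3, a gamma chain found in brain and peripheral nerve, had the opposite order to Lamc1 in RA-DIFF, at 5.86 CPM in the library labelled wild type and 1.32 CPM in that labelled Htt-null, against 0.55 and 0.37 CPM in ESC.

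**Figure D2:**
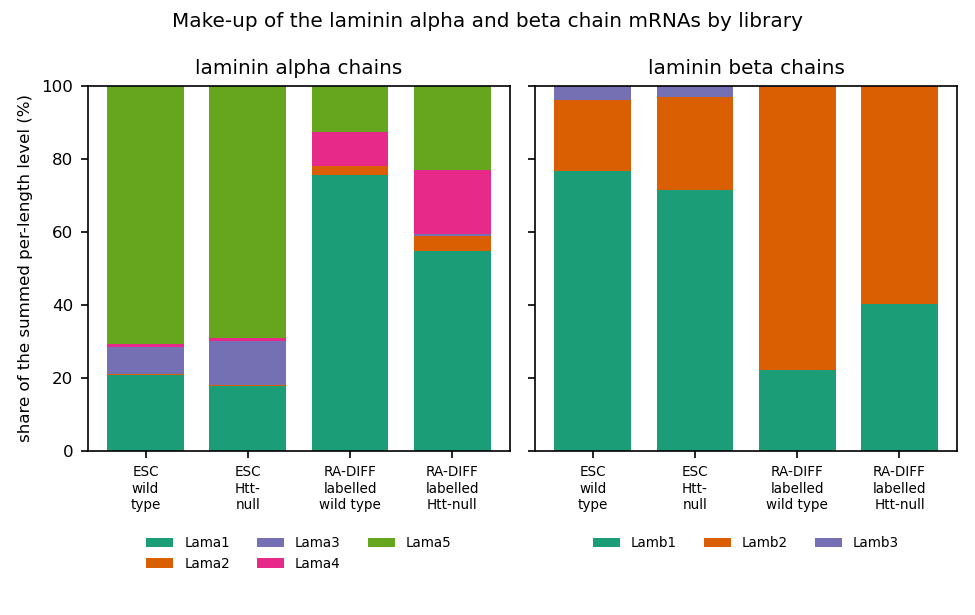
Share (%) of each chain in the summed per-length level (CPM per kilobase of merged exons) of the laminin alpha and beta chains, one stacked bar per library. Lama5 and Lamb1 held 70.7% and 76.7% in wild-type ESC, and Lama1 and Lamb2 held 75.7% and 77.6% in RA-DIFF labelled wild type.

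Itgb1, the beta subunit that pairs with most alpha subunits and with every collagen receptor, was the most abundant integrin mRNA per length of merged exons in every library. With the longest transcript as length, Itga6 stood above it in wild-type ESC, at 76.6 against 63.5 CPM per kilobase. Itgb1 stood at 242 and 276 CPM in ESC and at 377 and 859.9 CPM in RA-DIFF, and held 62.8%, 72.1%, 79.2% and 74.5% of the per-length beta subunit level. The log2 ratio of RA-DIFF over ESC was 0.64 in cells labelled wild type, under the limit, and 1.64 in cells labelled Htt-null. The gene lies on chromosome 8, at chr8:128685654-128733200 on the forward strand (GRCm38). For Htt-null over wild type in ESC, the median log2 ratio of the expressed genes on that chromosome was 0.36, beside 0.19 for Itgb1, which became -0.17 once that median was subtracted. Between the RA-DIFF libraries as labelled, that median was -0.22, beside 1.19 for Itgb1, or 1.41 after subtraction.

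The sequences before the start sites of 4 subunits that run through the comparisons are shown, 3 with their highest level in RA-DIFF labelled Htt-null (Itgb1, Itgav and Itgb5) and Lama5, with its highest level in ESC. Each is the 250 bases before the RefSeq start (GRCm38.p6), 5′ to 3′ on the gene's own strand, with capitals for the GC box GGGCGG or its reverse complement CCGCCC. Itgb1 lies at chr8:128685404-128685653 (+), Itgav at chr2:83724147-83724396 (+), Itgb5 at chr16:33829415-33829664 (+) and Lama5 at chr2:180225860-180226109 (-).
Itgb1: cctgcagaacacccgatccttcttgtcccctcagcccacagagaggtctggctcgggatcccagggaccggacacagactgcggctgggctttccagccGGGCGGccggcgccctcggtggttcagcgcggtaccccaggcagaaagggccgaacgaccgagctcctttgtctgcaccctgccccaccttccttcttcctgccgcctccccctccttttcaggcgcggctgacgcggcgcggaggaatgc
Itgav: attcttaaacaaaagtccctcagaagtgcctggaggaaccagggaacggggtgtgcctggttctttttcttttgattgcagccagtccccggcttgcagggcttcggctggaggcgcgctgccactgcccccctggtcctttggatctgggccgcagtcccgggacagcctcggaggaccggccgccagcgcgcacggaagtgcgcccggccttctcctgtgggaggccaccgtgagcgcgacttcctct
Itgb5: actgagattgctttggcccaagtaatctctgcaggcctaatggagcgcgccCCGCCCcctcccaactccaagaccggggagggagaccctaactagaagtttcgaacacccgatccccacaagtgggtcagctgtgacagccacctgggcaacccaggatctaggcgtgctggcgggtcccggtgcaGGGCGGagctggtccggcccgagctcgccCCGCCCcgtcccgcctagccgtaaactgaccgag
Lama5: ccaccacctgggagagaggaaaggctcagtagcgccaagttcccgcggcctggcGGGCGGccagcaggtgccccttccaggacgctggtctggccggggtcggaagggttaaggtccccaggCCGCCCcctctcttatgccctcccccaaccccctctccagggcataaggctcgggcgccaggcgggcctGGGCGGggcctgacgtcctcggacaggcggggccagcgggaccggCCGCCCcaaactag

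Lama5 held 4 GC boxes, Itgb5 held 3, Itgb1 held 1 and Itgav none. RefSeq promoter entries were found for 23 of the 37 members, 26 entries in all. A GC box on either strand stood in 9 of the 26, or in 8 members, beside 32.7% of all 32851 promoters of the same length. The TATA box TATAAA was found in 0 of the 26, beside 12.4% of all promoters, and the retinoid receptor motif AGGTCA in 0 of the 26, beside 14.02%. The GC content of the members' entries had a median of 58.0%, against 52.4% for all promoters. These matches describe letters in the windows and not binding.

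The laminin receptors with Itgb1 use the alpha subunits Itga3, Itga6 and Itga7. Itga6, the laminin receptor subunit of stem cells and epithelia, was the leading alpha subunit per length in every library. It stood at 330.1 and 241 CPM in ESC and at 99.99 and 388 CPM in RA-DIFF, so the lowest and the highest level were both in RA-DIFF. Its share of the per-length level of the alpha subunits that pair with Itgb1 was 41.4% and 40.8% in ESC, and 31.9% and 38.7% in RA-DIFF. Itga3, which binds the laminins that hold Lama3 or Lama5, stood at 52.3 and 57.7 CPM in ESC and at 11.6 and 80.2 CPM in RA-DIFF, a log2 ratio of 2.79 between the RA-DIFF libraries. Itga7, the laminin receptor subunit of muscle, lay between 1.72 and 3.82 CPM.

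The collagen receptors use Itga1, Itga2, Itga10 and Itga11. Itga1, which favours collagen IV of basement membranes, stood at 0.53 and 0.89 CPM in ESC and at 3.58 and 20.5 CPM in RA-DIFF. Itga2, which favours fibrillar collagen, stood at 0.30 and 0.20 CPM in ESC and at 0.71 and 6.18 CPM in RA-DIFF. Both were higher in both RA-DIFF libraries than in ESC, and between the RA-DIFF libraries they differed by log2 ratios of 2.52 and 3.11. Their genes are neighbours on chromosome 13, 20995 bp apart with no protein-coding gene between them. Itga11, a receptor subunit of mesenchymal cells, stood at 0.74 and 0.28 CPM in ESC and at 6.26 and 7.77 CPM in RA-DIFF, where its log2 ratio between the libraries was only 0.31. Itga10, found in cartilage, lay between 2.42 and 3.48 CPM.

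Of the subunits that bind the RGD sequence, Itga5, the fibronectin receptor subunit, stood at 149.5 and 95.05 CPM in ESC and at 44.4 and 97.2 CPM in RA-DIFF. Itgav, which pairs with several beta subunits to bind vitronectin and latent TGF-beta, stood at 73.1 and 59.7 CPM in ESC and at 87.7 and 247 CPM in RA-DIFF. Itga5 held 34.3% and 29.5% of the alpha subunit level that pairs with Itgb1 in ESC, and 25.9% and 17.7% in RA-DIFF, whereas Itgav held 7.7% and 8.5% in ESC, and 23.5% and 20.7% in RA-DIFF. Itga8, a receptor of the developing kidney and mesenchyme, stood at 2.39 and 1.56 CPM in ESC and at 6.13 and 31.2 CPM in RA-DIFF. Itga2b, the platelet subunit, lay between 2.50 and 3.63 CPM in the 4 libraries, and the 5 measured platelet markers summed to at most 4.49 CPM.

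Itgb8, which pairs with Itgav and activates latent TGF-beta in neural tissue and its vessels, had the widest range of the members. It had 2 reads in each ESC library (95% Poisson intervals 0.0028 to 0.0833 CPM and 0.0037 to 0.111 CPM), and stood at 136 and 172 CPM in RA-DIFF with 15235 and 16911 reads. The log2 ratio of RA-DIFF over ESC was 12.45 in cells labelled wild type, with a counting interval of 10.67 to 15.57, and 12.38 in cells labelled Htt-null, with an interval of 10.60 to 15.50. No ratio between the genotypes is given in ESC, where both counts were under the limit of 3, and in RA-DIFF it was 0.34. The 6 neural progenitor markers summed to 122 and 132 CPM in ESC and to 4228 and 5414 CPM in RA-DIFF. The RA-DIFF sums were mostly Vim (1712 and 2906 CPM) and Fabp7 (1058 and 1148 CPM). Vim, Fabp7 and Nes were higher under the Htt-null label. Sox1 (285 and 154 CPM), Pax6 (82.8 and 47.7 CPM) and Msi1 (512 and 326 CPM) were lower. The part of these markers in the Itgb8 level was not tested.

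Itgb5, the vitronectin receptor subunit that pairs with Itgav, stood at 43.9 and 40.9 CPM in ESC and at 40.5 and 197 CPM in RA-DIFF. The library labelled Htt-null stood apart from the other 3, which differed by less than 4 CPM. Itgb3, another partner of Itgav, stood at 18.6 and 19.1 CPM in ESC and at 0.93 and 2.28 CPM in RA-DIFF. Itgb4, which pairs with Itga6 in hemidesmosomes, stood at 18.4 and 14.6 CPM in ESC and at 1.21 and 3.01 CPM in RA-DIFF. Among the partners of Itgav and Itga6, both were thus higher in ESC than in RA-DIFF in both lines, with log2 ratios between -4.32 and -2.28.

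Subunits known from leukocytes were counted in ESC. Itgb7 stood at 46.8 and 25.2 CPM in ESC and at 0.80 and 0.65 CPM in RA-DIFF, and held 17.9% and 9.7% of the per-length beta subunit level in ESC. Itgal stood at 6.86 and 10.8 CPM in ESC and at 0.41 and 0.43 CPM in RA-DIFF, and Itgam at 8.26 and 7.65 CPM in ESC and at 0.37 and 0.11 CPM in RA-DIFF. Itgae, a partner of Itgb7 that binds E-cadherin, stood at 3.86 and 5.23 CPM in ESC and at 1.41 and 1.05 CPM in RA-DIFF. All 4 were higher in both ESC libraries than in both RA-DIFF libraries. Itgb7, Itgal and Itgam were above 1 CPM in ESC alone and had to differ between the stages to be kept. The share of all genes that separate the stages in this way was not computed. Itgb2, the partner of Itgal and Itgam, had only 32 and 53 reads in ESC and 3 and 6 in RA-DIFF. Of the leukocyte markers, Ptprc had 3 reads in wild-type ESC and 0 in Htt-null ESC, and Tyrobp had 0 in both. Laptm5 and Cd68 were counted there, at 86.2 and 53.0 CPM and at 20.2 and 17.1 CPM. The 8 leukocyte markers summed to 111 and 75.9 CPM in ESC, mostly Laptm5, and to 26.6 and 13.4 CPM in RA-DIFF, mostly Coro1a at 20.7 and 7.58 CPM. Their part in the levels of these subunits was not tested. Itga4 and Itga9, related alpha subunits that bind fibronectin variants and VCAM-1 or tenascin, stood at 4.09 and 3.08 CPM and at 28.9 and 19.2 CPM in ESC, and at 2.69 and 4.68 CPM and at 7.67 and 18.5 CPM in RA-DIFF.

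Between the stages, the members did not move in a single direction. In cells labelled wild type, 9 of the 33 members above the expression limit were higher in RA-DIFF past the limits and 16 were lower, where 34.0% of the 15492 genes above the limit were higher and 26.2% lower. The median log2 ratio was -0.61 over these members and 0.12 over all genes. In cells labelled Htt-null, 14 members were higher and 10 lower, where 34.4% of all genes were higher and 24.9% lower, and the medians were 0.56 and 0.17. Among the 23 members above 1 CPM in at least 1 library of each stage, 3 were higher and 12 lower in cells labelled wild type, and 8 were higher and 6 lower in those labelled Htt-null. The median log2 ratios over these 23 were -1.45 and 0.47. No share of all genes was computed under this narrower filter, so the shares above are no reference for these counts. Measured against the ESC library of the other line, as with exchanged labels, the RA-DIFF library labelled Htt-null gave 14 higher and 10 lower (all genes 34.5% and 25.3%). That labelled wild type gave 10 higher and 16 lower (33.6% and 25.5%). These counts describe 4 libraries, and fewer cells of a type and less RNA per cell cannot be told apart in them.

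Higher in RA-DIFF in both lines were Lama2, Lama4, Lamb2, Lamc3, Itga1, Itga2, Itga8, Itga11 and Itgb8. Of these, Lama2, Lamc3, Itga1, Itga2, Itga11 and Itgb8 were above 1 CPM in RA-DIFF alone and had to differ between the stages to be kept. The share of all genes that were higher, or lower, in both lines was not computed. The laminin chains among them had log2 ratios of 4.16 and 5.00 (Lama2), 2.16 and 4.31 (Lama4), 2.33 and 2.61 (Lamb2) and 3.40 and 1.84 (Lamc3) in cells labelled wild type and Htt-null. The collagen receptor subunits had 2.75 and 4.52 (Itga1), 1.25 and 4.95 (Itga2) and 3.08 and 4.81 (Itga11). The members lower in both included Lama3, Lama5, Lamb3, Itgae, Itgal, Itgam, Itgb3, Itgb4 and Itgb7. Of these, Lamb3, Itgal, Itgam and Itgb7 were above 1 CPM in ESC alone and had to differ likewise. Lama5, the most abundant alpha chain of ESC per length, had log2 ratios of -3.68 and -1.40, and Itgb7 had -5.86 and -5.27. Lama1, Itga7, Itgav, Itgb1 and Itgb5 were higher past the limits in the cells labelled Htt-null, with log2 ratios of 1.81, 0.97, 2.05, 1.64 and 2.27, beside 0.66, 0.61, 0.26, 0.64 and -0.12 in those labelled wild type. With the RA-DIFF labels exchanged, Lama1 was higher past the limit in both lines, at 1.29 in wild type and 1.18 in Htt-null. Lamb1, Lamc1, Itga3, Itga5, Itga6 and Itga9 were lower past the limits in cells labelled wild type, with log2 ratios between -2.17 and -1.47, beside values between -0.06 and 0.69 in those labelled Htt-null. Whether the lines differ in these ratios was not tested, since each has 1 library per stage.

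**Figure D3:**
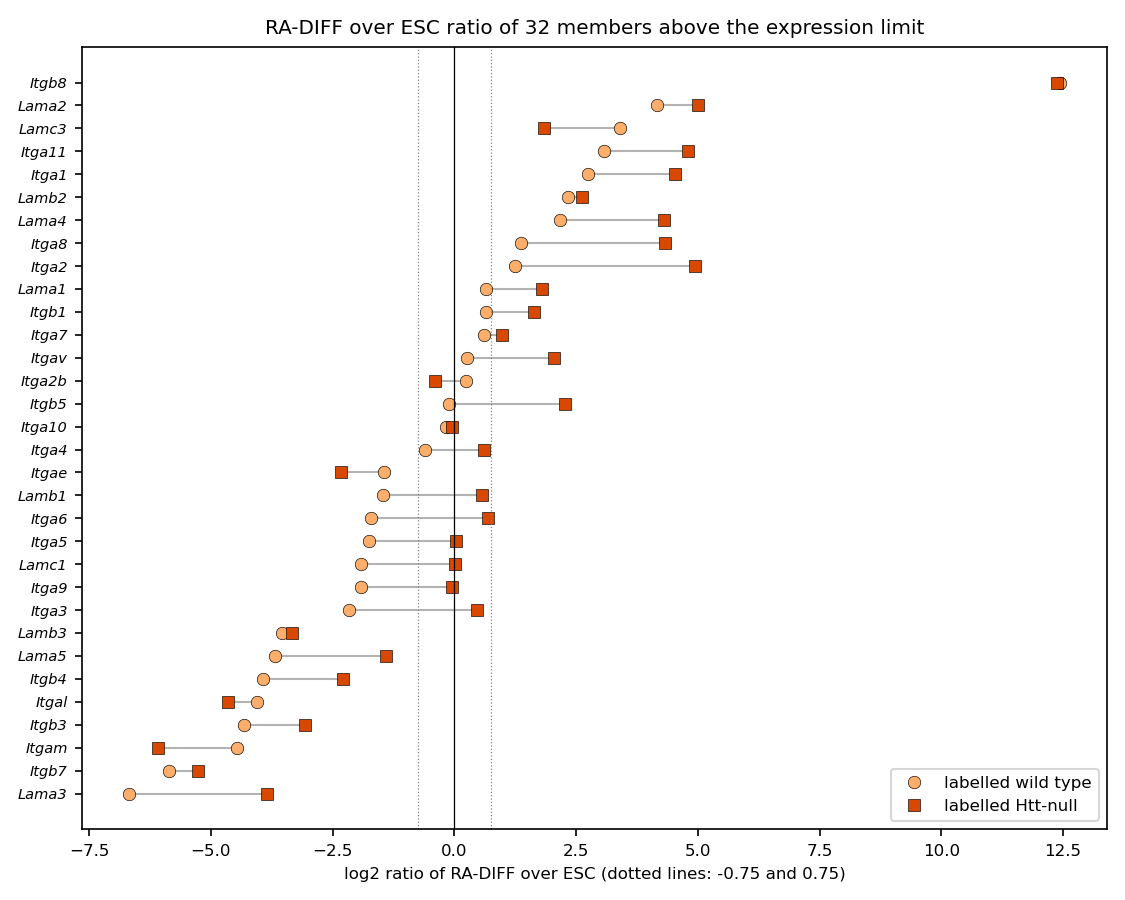
Log2 ratio of RA-DIFF over ESC for 32 members above the expression limit, with circles for cells labelled wild type and squares for cells labelled Htt-null, and dotted lines at -0.75 and 0.75. Itgb8 lies at 12.45 and 12.38, and Lamb1 and Itga6 lie below -0.75 for the circles and above 0 for the squares.

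In ESC, the share of members past the limits lay near that of all genes. Lama2 alone was higher past the limits in the Htt-null library, with a log2 ratio of 1.12, and Itga11 and Itgb7 were lower, at -1.41 and -0.89. That is 1 and 2 of 33, Itgb8 having no ratio there, where 5.44% of all genes were higher and 3.76% lower, and the median log2 ratio was -0.20 over the members and -0.04 over all genes. Lama2 rested on 25 and 41 reads and Itga11 on 64 and 18, with counting intervals of 0.37 to 1.90 and -2.26 to -0.65. Itgb7 rested on 4056 and 1643 reads and had an interval of -0.98 to -0.81. Among the members with at least 1000 reads in both ESC libraries, the next largest ratios were those of Itga5 (-0.65), Itga9 (-0.59), Lama1 (-0.52) and Itga6 (-0.46), under the limit. In the other direction and on fewer reads, Itga1 stood at 0.74 on 46 and 58 reads, just under the limit and at 0.86 after subtraction of the chromosome median, and Itgal at 0.65 on 595 and 702 reads. With p under 0.05 also required in the edgeR exact test at an assumed dispersion of 0.1, 0 members were past the limits in either direction, beside 0.981% of all genes higher and 0.645% lower.

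In RA-DIFF, the library labelled Htt-null held more of most subunits than the library labelled wild type. Of the 33 members, 20 were higher past the limits and 2 lower, where 11.9% of all genes were higher and 9.31% lower. The median log2 ratio was 1.27 over the members and -0.01 over all genes. Lama3, Itga2 and Itgb3, counted among the higher, were under 1 CPM in RA-DIFF labelled wild type. Higher were 7 of the 11 laminin chains, 9 of the 16 alpha subunits and 4 of the 6 beta subunits above the limit. With p under 0.05 also required at a dispersion of 0.1, 14 members were higher and 2 lower, beside 5.26% and 3.4% of all genes. With the labels exchanged the same members would be 20 lower and 2 higher in huntingtin-null cells.

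The laminin chains among them included Lama3 (log2 ratio 3.24), Lama4 (2.03), Lama2 (1.96), Lama5 (1.95), Lamc1 (1.83) and Lamb1 (1.72). Lama1 and Lamb2, the alpha and the beta chain with the largest shares in RA-DIFF per length of merged exons, were under the limit at 0.63 and 0.48. The alpha subunits were Itga2 (3.11), Itga3 (2.79), Itga1 (2.52), Itga8 (2.35), Itga6 (1.96), Itgav (1.50), Itga9 (1.27), Itga5 (1.13) and Itga4 (0.80). They held 2 of the 3 laminin-binding and 2 of the 4 collagen-binding alpha subunits, and left out Itga7 (0.55), Itga10 (-0.35) and Itga11 (0.31). The beta subunits were Itgb5 (2.28), Itgb4 (1.31), Itgb3 (1.30) and Itgb1 (1.19). The 2 members with the opposite order were Lamc3 at -2.15, on 657 and 130 reads, and Itgam at -1.74, on 42 and 11 reads. After subtraction of each chromosome's median the counts were again 20 and 2.

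**Figure D4:**
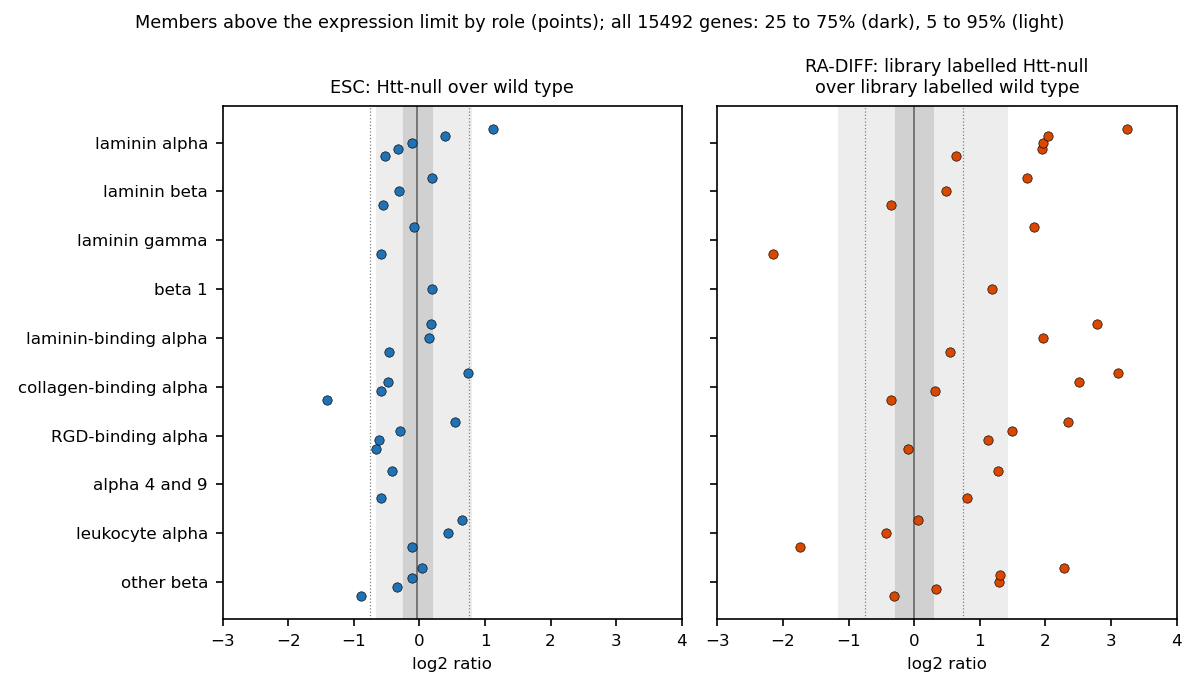
Log2 ratio of the library labelled Htt-null over that labelled wild type in ESC (left) and in RA-DIFF (right) for 32 members above the expression limit, one point each, in rows by role (Itgb8 has no ESC ratio). Dark and light bands span 25 to 75% and 5 to 95% of all 15492 genes above the limit, and the RA-DIFF points of the laminin-binding alpha subunits lie at 0.55, 1.96 and 2.79.

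Markers of several cell types differed between the RA-DIFF libraries together with these genes. Of all genes above the expression limit, 11.9% were higher under the Htt-null label and 9.31% lower. Of the 10 fibroblast and mesenchyme markers, 9 were higher and 0 lower under the Htt-null label, and their summed level was 615 CPM in the library labelled wild type and 2275 CPM in that labelled Htt-null, against 46.7 and 35.0 CPM in ESC. Of the 8 neuronal markers, 7 were lower and 0 higher, with sums of 2707 and 1216 CPM, against 286 and 319 CPM in ESC. All 6 pluripotency markers were lower, with sums of 49.1 and 6.74 CPM, against 4927 and 4209 CPM in ESC. The RA-DIFF libraries thus differed in the markers of 3 cell classes, and the part of cell make-up in the subunit ratios was not tested.

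Of 12 endoderm markers, 8 were above the expression limit, and 4 were higher and 0 lower under the Htt-null label, with sums of 135 and 337 CPM, against 71.9 and 40.8 CPM in ESC. Plat made up most of the RA-DIFF sums, at 109 and 263 CPM, against 0.45 and 0.86 CPM in ESC. Between the stages 2 markers were higher and 3 lower in cells labelled wild type (all genes 34.0% and 26.2%). In those labelled Htt-null, 4 were higher and 3 lower (34.4% and 24.9%). Of 8 endothelial markers, 7 were above the limit, and 3 were higher and 1 lower, with sums of 28.3 and 93.5 CPM, against 215 and 238 CPM in ESC, where Pecam1 alone stood at 180.1 and 212 CPM. Neural progenitor markers gave 1 higher and 2 lower of 6, all above the limit. Of 6 muscle markers, 3 were above the limit and 2 of these were higher, with sums of 2.94 and 6.19 CPM, against 27.7 and 38.5 CPM in ESC.

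Genes that work with the subunits were counted from 3 lists, to be read against the shares of all genes given above for each comparison. Of 16 basement membrane partners, 14 were above the expression limit, and between the RA-DIFF libraries 5 were higher under the Htt-null label and 0 lower (median log2 ratio 0.60). The largest ratios were those of perlecan (Hspg2) at 2.34, the matrix protein Sparc at 1.61 and the linkers Nid1 and Nid2, which join laminin to collagen IV, at 1.53 and 1.51. Between the stages, 6 partners were higher and 5 lower in cells labelled wild type (all genes 34.0% and 26.2%), and 7 were higher and 2 lower in those labelled Htt-null (34.4% and 24.9%). Within ESC, Htt-null cells had 0 higher and 2 lower.

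Of 20 other integrin ligands, 16 were above the limit, and between the RA-DIFF libraries 10 were higher under the Htt-null label and 1 was lower (median 1.80). Fibronectin (Fn1), the ligand of Itga5, stood at 1290 and 1173 CPM in ESC and at 92.8 and 372 CPM in RA-DIFF. It had the highest mean level of the ligands, with both ESC libraries above both RA-DIFF libraries. The largest ratios were those of Madcam1, a ligand of Itgb7, at 2.72 on 3 and 18 reads, thrombospondin (Thbs1) at 2.64 and osteopontin (Spp1) at 2.48. Between the stages, 6 ligands were higher and 7 lower in cells labelled wild type, and 9 were higher and 7 lower in those labelled Htt-null. Within ESC, Htt-null cells had 1 higher and 2 lower.

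Of 21 genes of the adhesion machinery inside the cell, 20 were above the limit, and between the RA-DIFF libraries 7 were higher under the Htt-null label and 2 were lower (median 0.62). Talin (Tln1), which switches integrins on, had a ratio of 1.43, the tensins Tns1 and Tns3, which tie integrins to actin, had 2.00 and 1.84, and gamma-parvin (Parvg) had -1.62 on 91 and 26 reads. Between the stages, 5 were higher and 6 lower with differentiation under the wild-type label, and 8 were higher and 3 lower under the Htt-null label. Within ESC, Htt-null cells had 1 higher and 0 lower.

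Exons of 7 members overlap those of a gene on the other strand that is also in the table. The largest overlap was 1124 bp between Itga4 and Cerkl, which had 268, 135, 8 and 20 reads in the 4 libraries. Libraries were strand-specific, and the counting is described with default settings for options not named, the strand option among them. Whether the reads of such pairs were kept apart was not tested. Itgad, Itgam and Itgax lie side by side on chromosome 7, with 11055 bp between Itgam and Itgax and 3718 bp between Itgax and Itgad, and of these 3 Itgam alone was above the expression limit.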

How the data were processed

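The authors aligned the 50 bp read pairs of 4 RNA-seq libraries with TopHat 2.0.14 to GRCm38.p4, as the submitters' processing notes and the study's methods name them, and counted them per GENCODE gene with HTSeq 0.6.1. They deposited raw counts per gene, not normalized and not pooled, and all columns were mapped to a sample by name. The libraries keep strand (dUTP), and the methods name no strand setting for HTSeq and state defaults wherever nothing else is given. Whether reads of members and overlapping antisense genes were kept apart was not tested. A small RNA count table was not used.

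From the deposited counts, TMM factors (0.976 to 1.025), CPM and log2 ratios (prior count 0.125) were computed over all genes with edgeR 4.0.16 in R 4.3.3. Python 3.11.15 was used for tables (pandas 2.3.3, numpy 2.4.6), intervals (scipy 1.17.1) and figures (matplotlib 3.10.9). With 1 library per condition, the spread within a condition cannot be estimated. The quasi-likelihood test with additive terms for stage and line, which would take lines or stages as replicates, was not fitted, and no p-value is printed. A gene was past the limits with an absolute log2 ratio above 0.75 and a mean log2 CPM above 0, which are the size and level limits of the study's methods. Their further limit, p under 0.05 in the edgeR exact test at an assumed dispersion of 0.1, was run as an alternative. Intervals are exact Poisson or binomial intervals at 95% and cover counting error only. The calling step was run on counts simulated at an assumed dispersion of 0.01, with planted changes larger than the limit. That run cannot speak to the spread between cultures, which is not known here.

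Members above the expression limit are given with their values, ordered by role. Results for 1 member are not reported here, and it stays in the counts, sums and medians. Other genes come only from 3 lists (basement membrane partners, other integrin ligands, adhesion machinery), with at most 4 named each, those of highest mean level or largest ratio, and from 10 lists of cell type markers. The members and lists were chosen with earlier results of these data known. Positions were read from GENCODE vM21 (GRCm38), and 27 of 37 members had the deposited start and end. Promoters are RefSeq's on GRCm38.p6. Alternatives were other scalings, expression and ratio limits, prior counts, an edgeR exact test at an assumed dispersion of 0.01 or 0.1, exchanged RA-DIFF labels, subtraction of chromosome medians and another gene length.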

Additional observations from a re-analysis of the deposited data

Results flagged for a closer look

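In 5 cases, log2 ratios had opposite signs under the same contrast, with counting intervals away from 0, the smaller over 0.5 in size and the larger over 0.75. None of these differences was tested, since each condition has 1 library. For RA-DIFF over ESC, Lamb1 stood at -1.47 in cells labelled wild type and 0.56 in cells labelled Htt-null, and Itga6 at -1.72 and 0.69. With the RA-DIFF labels exchanged, Lamb1 stood at 0.26 and -1.16 and Itga6 at 0.23 and -1.27. For Htt-null over wild type, Itga5 stood at -0.65 in ESC and 1.13 in RA-DIFF, Itga8 at -0.61 and 2.35, and Itga9 at -0.59 and 1.27. With the labels exchanged the RA-DIFF values take a negative sign and the stages no longer differ in sign. The contrasts share libraries and are not independent of each other.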

How the results depend on the processing

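Pairing by replicate number was not possible because the groups share 1 number only, and no replicate could be left out. A fit of stage with the line as a block, which takes the lines as replicates, was not run. No ratio past the limits changed sign under another scaling, a prior count of 2 or subtraction of chromosome medians. Of the smaller ratios, those of Lamc1 (-0.07) and Itga5 (-0.04) for RA-DIFF over ESC in cells labelled Htt-null turned with library totals, that of Lamc1 (-0.01) also with RLE factors, and those of Lama4 (0.01), Itga3 (-0.07), Itgb1 (-0.17) and Itgb3 (-0.17) in ESC turned with chromosome medians. With the RA-DIFF labels exchanged, RA-DIFF over ESC gave 14 higher and 10 lower in wild type (all genes 34.5% and 25.3%). In Htt-null it gave 10 higher and 16 lower (33.6% and 25.5%). Htt-null over wild type in RA-DIFF then gave 2 higher and 20 lower (9.31% and 11.9%). For Htt-null over wild type in ESC, the count of higher members was 2 with library totals, 3 without an expression limit (5848 of 32567 genes, against 842 of 15492), 2 after subtraction of chromosome medians and 0 at a dispersion of 0.1, and the count of lower members was 1 with a mean log2 CPM above 2, 1 at a ratio limit of 1 and 0 at a dispersion of 0.1. In RA-DIFF the count of lower members was 1 with a mean log2 CPM above 2, and a dispersion of 0.1 gave 14 higher (5.26% of all genes, against 11.9%). With the longest transcript as gene length, Lama1 held 68.7% and 45.9% in RA-DIFF labelled wild type and Htt-null, Lama5 69.7%, 67.8%, 11.3% and 18.9% in the 4 libraries, Lamb1 83.4%, 79.5%, 31.0% and 51.7%, Lamc1 92.3% and 92.4% in ESC and 97.9% in RA-DIFF labelled Htt-null, and Itga6 55.5%, 54.6%, 43.4% and 50.6%. For members with few reads, such as Lama2, Itga2 and Itga11 in ESC, depth limits the ratios. Counting error does not cover differences between cultures.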
